A study of Rattus norvegicus with 320 samples.

Results

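The miR-200 family of the rat was followed through 11 organs and 4 ages. Its members were taken by name, as every row of the deposited table called miR-200a, miR-200b, miR-200c, miR-141 or miR-429, with or without an arm suffix. This gave 9 of 616 miRNAs: the 5 abundant strands rno-miR-200a-3p, rno-miR-200b-3p, rno-miR-429, rno-miR-200c-3p and rno-miR-141-3p, called the members here and written without the species prefix, and the 4 scarce 5p strands of the same hairpins other than miR-429. Small RNA was sequenced from lung, kidney, liver, brain, thymus, spleen, heart, muscle, adrenal gland, uterus and testis of Fischer 344 rats, an inbred strain. Males and females aged 2, 6, 21 and 104 weeks were sampled, with 4 biological replicates for each of the 80 groups of organ, sex and age, so that testis came only from males and uterus only from females. All groups shared the strain, no treatment is named for any, and several organs came from each rat. RNA was taken from ground organ tissue, so each value is a mean over the cell types in that tissue. The values are read counts per miRNA, and levels are given as CPM, a count divided by the sample's total over the 616 miRNAs and multiplied by 1000000. Totals ran from 315550 to 10571766 counts per sample with a median of 2848156, and liver was shallowest with 315550 to 1692126.

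MicroRNAs are short RNAs that guide Argonaute proteins to messenger RNAs, mostly by pairing of the seed, bases 2 to 8 of the strand. The miR-200 family is known for keeping cells epithelial: its members repress Zeb1 and Zeb2, transcription factors that shut off E-cadherin, and these factors in turn repress the genes of the family. It is therefore abundant in sheets and glands of epithelial cells and scarce in muscle and connective tissue, and it has also been described in olfactory and other sensory cells.

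The mature strands are printed below because the family is defined by them. They were read from the deposited table, and the capitals mark the seed.
miR-200a-3p: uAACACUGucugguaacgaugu
miR-141-3p: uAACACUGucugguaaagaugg
miR-200b-3p: uAAUACUGccugguaaugaugac
miR-429: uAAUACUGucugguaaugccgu
miR-200c-3p: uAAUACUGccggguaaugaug
The first pair and the last 3 form separate seed groups, which differ by C4U, counted from the 5′ end with the base of miR-200a-3p first. No other of the 616 miRNAs carried either seed. Within each seed group 1 pair was closest: miR-200b-3p and miR-200c-3p differed at 1 of 21 compared positions (U11G, base of miR-200b-3p first), and miR-200a-3p and miR-141-3p at 2 of 22 (C17A and U22G), while every pair from different seed groups differed at 4 or 5. Because the authors' alignment allowed a mismatch, some reads of these pairs may have been counted for the wrong member, and the split within each pair is uncertain to that extent.

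The 5 hairpins lie in a pair of clusters, shown here in RefSeq coordinates of build GRCr8, all on the minus strand. The chromosome 4 cluster holds Mir141 at chr4:159209525-159209618 and Mir200c at chr4:159209965-159210033, within 509 bases, with Phb2 and Ptpn6 as neighbouring genes. The chromosome 5 cluster holds Mir429 at chr5:171929682-171929766, Mir200a at chr5:171930717-171930805 and Mir200b at chr5:171931495-171931589, within 1908 bases that fall inside the spans of the protein-coding gene Ttll10 and a long noncoding RNA. The authors aligned to build rn7, and the table gives no coordinates. Each cluster holds both seeds. The hairpin of miR-141 shows the layout, with both mature strands in capitals.
Mir141: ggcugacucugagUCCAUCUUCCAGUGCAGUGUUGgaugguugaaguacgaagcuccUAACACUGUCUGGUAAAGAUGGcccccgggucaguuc

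Several libraries stood apart and bear on the values below. The study removed 1 brain and 1 spleen library because they clustered with uterus, and the others of the 320 were used here. The 31 brain libraries spread 566-fold in the summed level of the 5 members. Brain female 4 of week 104, used here at 733 CPM, had a much smaller share of miRNA reads than other brain samples, by the study's account. In thymus at week 104, males 1 and 4 had 978 and 1656 CPM against 4792 to 13252 CPM in the other 6. Spleen female 3 at week 104 (4295 CPM), liver male 3 at week 21 (3632 CPM) and muscle male 4 at week 2 (742 CPM) were each far above the rest of their groups. Changes of members from week 2 that rest on the thymus, spleen and muscle libraries are given with and without them. Organ means, organ contrasts and ratios include them unless stated, and brain is given library by library. All spleen samples of week 2 had degraded RNA by the study's own integrity scores, so that in spleen low RNA quality and week 2 cannot be told apart. Marker miRNAs were checked for the organs that have them: hepatocyte miR-122 averaged 29704 CPM in liver and at most 122 CPM elsewhere, the neuronal pair miR-124 and miR-9a 56872 CPM in brain and at most 190.4 CPM elsewhere, and the striated muscle trio 122530 CPM in muscle and 75410 CPM in heart. The 122 CPM is the mean of lung, where miR-122 had a median of 4.56 and a maximum of 2885 CPM. Lung miR-192 had a median of 1723 and a maximum of 26475 CPM, and the part of liver tissue in lung was not tested. The 8 germ-cell miRNAs averaged 32259 CPM in testis and at most 21.8 CPM elsewhere, and the white cell list was highest in spleen (46618 CPM) and thymus (36017 CPM). No miRNA list defining lung, kidney, adrenal gland or uterus alone was used, so these labels were not checked.

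The family was most abundant in lung and least abundant in adrenal gland, a 222-fold range of organ means. In lung the summed level ran from 6068 CPM through a median of 12375 to 17716 CPM, and in kidney from 4049 through 7079 to 15604 CPM. In thymus it ran from 978 through 4653 to 13252 CPM, in uterus from 1628 through 2785 to 6158 CPM, and in liver from 245 through 1617 to 3632 CPM. Lung and uterus overlapped only at their edges (6068 against 6158 CPM), and both lay above every heart, muscle and adrenal library. In spleen the level ran from 213 through 776 to 4295 CPM, and in testis from 52.9 through 441 to 3133 CPM. Heart held 61.5 to 208 CPM, muscle 19.5 to 742 CPM and adrenal gland 27.5 to 163 CPM. Brain covered nearly the whole scale, from 47.8 to 27016 CPM. In organ samples a lower level may mean fewer expressing cells or less RNA per cell, and these cannot be told apart. The order by mean was lung (11828 CPM, ± 2782 SD, n = 32), kidney (7310 ± 2174, n = 32), brain (6945 ± 7301, n = 31), thymus (5400 ± 3007, n = 32), uterus (3051 ± 1200, n = 16), liver (1690 ± 839, n = 32), spleen (1095 ± 1060, n = 31), testis (983 ± 1092, n = 16), heart (121 ± 34.8, n = 32), muscle (103 ± 133, n = 32) and adrenal gland (53.2 ± 26.7, n = 32). The label epithelial held for lung, kidney, thymus and uterus against heart and muscle. It did not hold for adrenal gland, whose mean lay below those of heart and muscle. The mean of brain in CPM, above those of thymus and uterus, also goes against it. This last order turns with the scaling: with TMM factors, which correct totals for a few very abundant miRNAs, brain averaged 4033 CPM, below thymus (5841) and uterus (5803), and kidney (10482) came close to lung (10630). Muscle (136) then lay above heart (121). In CPM averaged over ages, brain (7548) exceeded kidney (6968) without replicate 4, and testis (1012) exceeded spleen (932) without replicate 3.

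**Figure D1:**
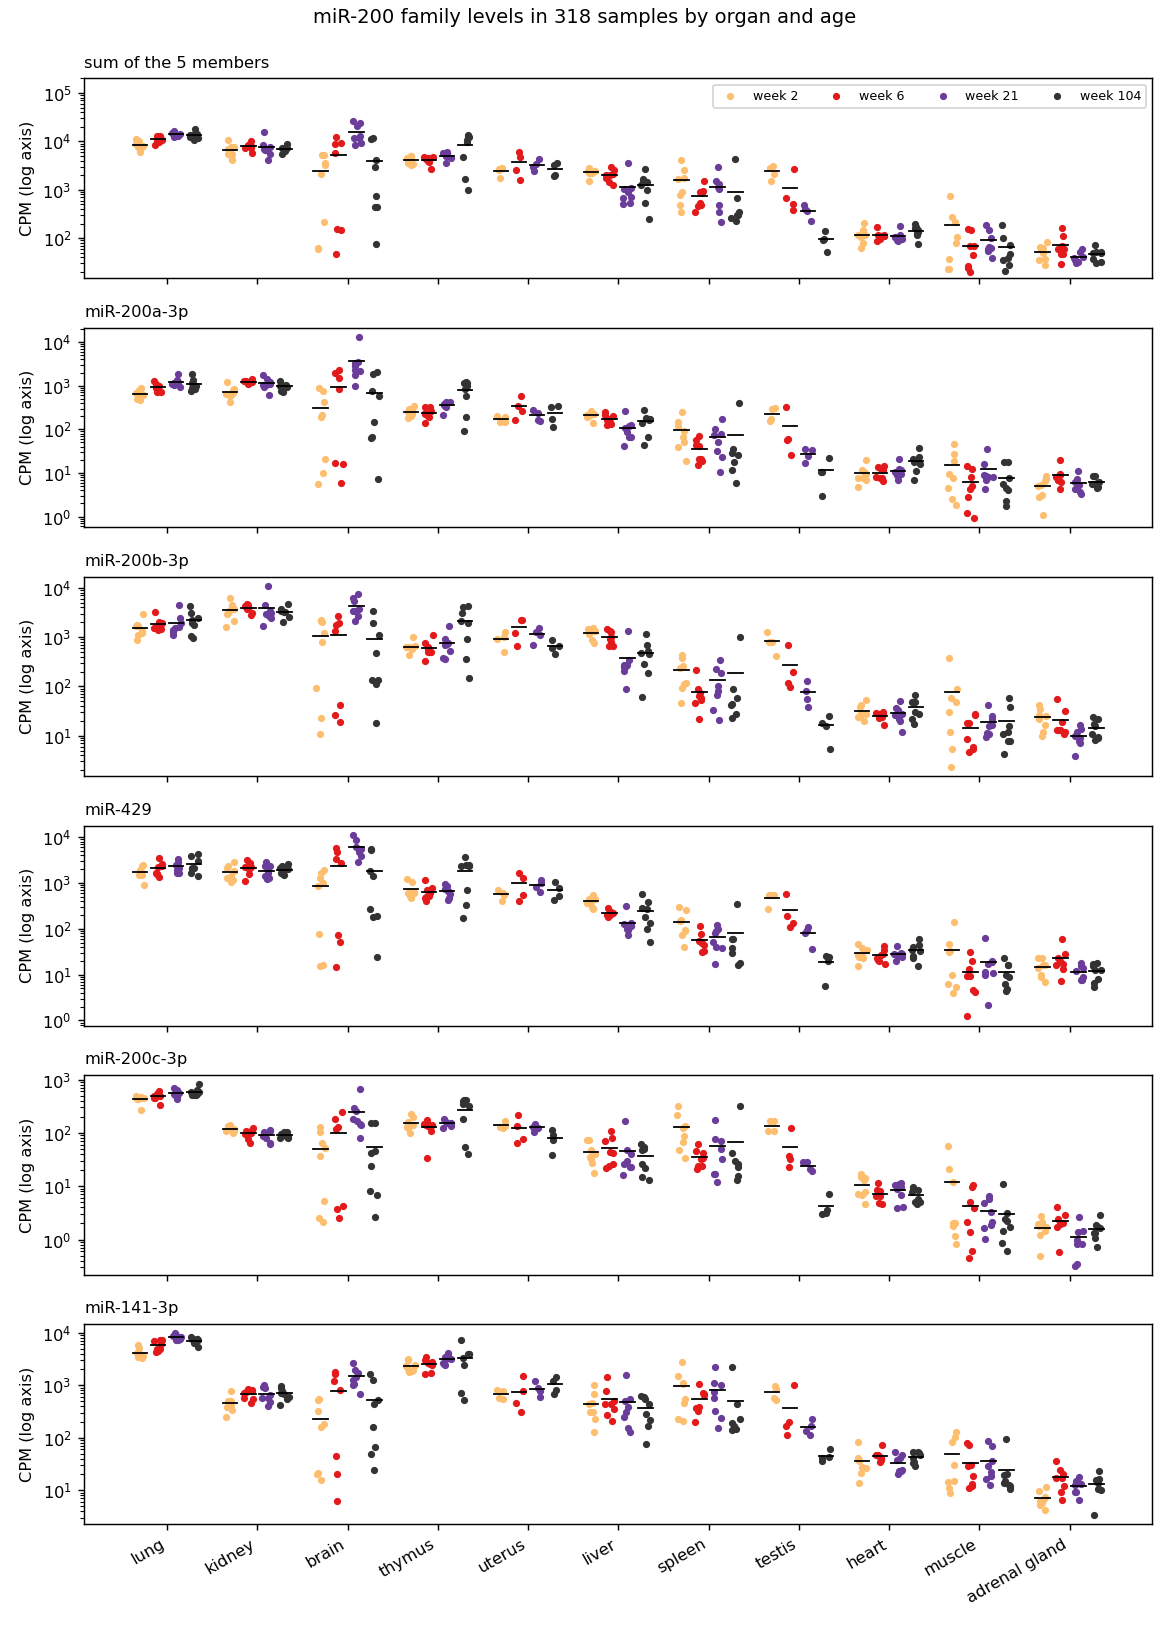
Levels of the 5 members and of their sum in the samples used, with organs along the horizontal axis, CPM on log axes and colours for the 4 ages; each point is 1 sample. The means of adrenal gland, muscle and heart are the lowest (53.2 to 121 CPM for the sum), with single testis and brain points as low, lung is tight and high, and the brain points run from 47.8 to 27016 CPM.

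Each organ was tested against each other organ at each age, 220 contrasts in all, by the quasi-likelihood test of edgeR, with p-values adjusted over the 616 miRNAs by the Benjamini-Hochberg method. Of these, 168 passed for miR-200a-3p, 176 for miR-200b-3p, 171 for miR-429, 175 for miR-200c-3p and 178 for miR-141-3p, which is 868 of 1100 tests, or 76.4% to 80.9% per member. Over all 616 miRNAs 62.0% of such tests passed. Without brain the counts were 138 to 146 of 180 against 58.6% of all tests. Leaving out the contrasts with spleen at week 2, 827 of 1050 passed. All organs of an age shared a fit, so each miRNA had the same spread for every organ. Yet the within-group SD of the log2 summed level ran from 0.23 in lung to 2.64 in brain. The SEs of contrasts with brain may therefore be too small, and those between tight organs such as lung and kidney too large. Calls with brain, and missing calls between tight organs, are uncertain to that extent.

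miR-141-3p and miR-200c-3p, the chromosome 4 pair, were highest in lung. miR-141-3p averaged 6267 CPM there (± 1804 SD, n = 32, from 3279 to 9749 CPM), 0.627% of all counts and rank 23 among the miRNAs of lung, against 12.6 CPM in adrenal gland (± 6.91, n = 32). At week 21 the difference between adrenal gland and lung was -8.85 on the log2 scale (SE 0.50, edgeR quasi-likelihood adjusted p = 1.65e-27). Lung was higher than the other organ in 36 of its 40 contrasts and lower in 0, for both members. Thymus came next for miR-141-3p with 2822 CPM (± 1185, n = 32), and lung exceeded it past the threshold at week 21 alone (1.296 on the log2 scale, SE 0.36, edgeR adjusted p = 0.00119). At weeks 2, 6 and 104 this difference was 0.13, 1.04 and 1.10 and did not pass. miR-200c-3p was the scarcest member in every organ but spleen, with 516 CPM in lung (± 105, n = 32) and 1.64 CPM in adrenal gland. In spleen miR-200a-3p averaged slightly less (69.4 against 72.2 CPM).

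miR-200b-3p was highest in kidney, where it averaged 3634 CPM (± 1656 SD, n = 32, median 3347), 0.363% of all counts and rank 25. Adrenal gland had 17.2 CPM, 211-fold less. Kidney was higher in 36 of 40 contrasts of this member and lower in 0. Over lung, which had 1902 CPM (± 880, n = 32), it passed at weeks 2, 6 and 21 with differences of 1.74, 1.46 and 1.66 on the log2 scale, and at week 104 the difference was 1.28 (SE 0.59, edgeR adjusted p = 0.0701). For miR-200a-3p and miR-429 kidney and lung did not differ past the threshold at any of the 4 ages. Brain had the highest means of both, 1431 and 2758 CPM averaged over ages, yet with TMM in edgeR it passed above neither kidney nor lung at any age. For miR-200a-3p brain was below kidney past the threshold at weeks 2, 6 and 104 (-2.46, -2.04 and -1.64 on the log2 scale) and below lung at weeks 2 and 6 (-1.72 and -1.20), but with library size alone brain minus lung at week 6 was 0.024 and did not pass, and brain minus kidney at week 21, -0.0032 with TMM, was 1.75 and passed. For miR-429 brain was below kidney at the same 3 ages (-2.28, -1.49 and -1.22) and below lung at week 2 (-1.70, SE 0.46). The SEs and calls of these brain contrasts rest on the spread shared by all organs. With library size alone the difference from kidney at week 6 turned direction. A call below lung at week 6 (-1.06, SE 0.49) turned direction with library size alone (0.16) and with DESeq2 (0.077) and passed by neither, and at week 21 brain passed above lung by those settings (1.40 and 1.18) but not with TMM in edgeR (0.44). At the bottom of the order heart and muscle did not differ for miR-200a-3p, miR-200c-3p or miR-141-3p at any age, and adrenal gland was below the other organ in 33 to 39 of 40 contrasts per member and above it in 0.

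The mix of members differed between organs. miR-141-3p made up 65.7% of the family in spleen (± 9.15 SD, n = 31), 55.6% in thymus (± 11.9, n = 32) and 52.9% in lung (± 8.72, n = 32), but 9.10% in kidney (± 3.50, n = 32). miR-200b-3p led in kidney with 48.6% (± 7.57) and in liver with 43.0% (± 13.8), and miR-429 led in brain with 38.8% (± 7.25, n = 31). miR-200c-3p never averaged more than the 7.18% of heart.

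**Figure D2:**
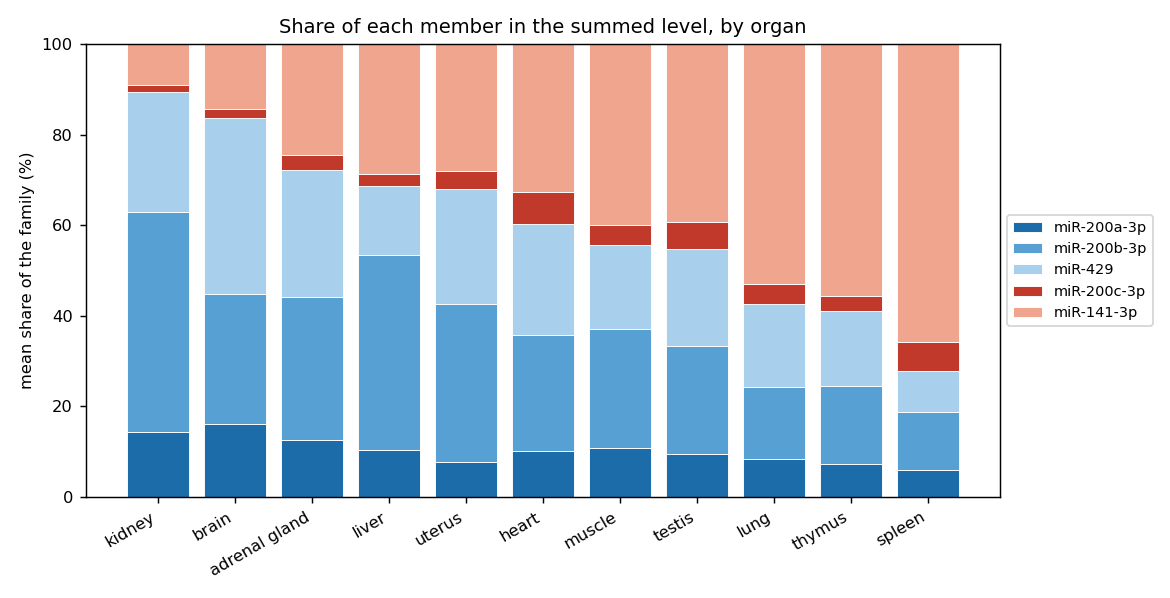
Mean share of each member in the summed level of the 5 members, in percent, for the 11 organs; each stacked bar reaches 100%. miR-141-3p falls from 65.7% in spleen to 9.10% in kidney, where miR-200b-3p takes 48.6%.

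This was tested with a ratio taken within each library, which does not depend on depth: the counts of the chromosome 4 pair over those of the chromosome 5 trio, on the log2 scale. It averaged 1.42 in spleen (± 0.60 SD, n = 31), 0.55 in thymus and 0.44 in lung, where the chromosome 4 pair was the larger part, and -3.17 in kidney (± 0.54, n = 32) and -2.49 in brain (± 0.79, n = 31), where the trio was. The other 6 organs lay between -0.28 in testis and -1.45 in adrenal gland. Of 220 organ pairs at single ages, 161 passed a two-sided exact permutation test with adjustment over all tests of the ratio. Spleen was higher in 37 of its 40 tests and lower in 0 (27 and 0 of 30 without week 2), and kidney was lower in 38 and higher in 0. Regrouped by seed, miR-200a-3p and miR-141-3p over the other 3, the ratio passed in 143 of 220 pairs, with spleen again higher in 35 and kidney lower in 34 of 40. miR-141-3p is in both numerators, so these counts are not independent.

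Even so, members of 1 cluster went together most closely. Over the 80 group means, on the log2(CPM + 1) scale, Pearson's r was 0.976 between miR-200c-3p and miR-141-3p and 0.971 to 0.986 among miR-200a-3p, miR-200b-3p and miR-429, but 0.848 to 0.911 between clusters. These are descriptions over groups that share organs and library totals.

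The 5p strands were a small part of each hairpin's counts. Over all libraries used they took 2.24% of the counts of miR-200a, 0.549% of miR-200b, 0.246% of miR-200c and 0.615% of miR-141. The 5p share of miR-200a varied most visibly, from 1.27% in brain (95% Wilson interval 1.22% to 1.32%) to 4.23% in liver (3.73% to 4.79%) and 4.07% in uterus (3.83% to 4.32%). The intervals cover counting error only. For miR-200c-5p the adrenal and heart libraries held 0 counts beside 203 and 819 counts of the 3p strand, which allows a share of up to 1.86% and 0.467% by the Wilson interval.

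Replicates disagreed most in brain. In females at week 2 the summed level was 216.2, 60.9, 5307 and 62.5 CPM, and in males of that age 3296.5, 5336, 2109.8 and 3567 CPM. At week 6 females had 9405, 145, 5741 and 155 CPM, and the 3 males used had 8913, 12552 and 47.8 CPM. Thus libraries of a single group lay on either side of the gap that was widest by fold (2.88-fold), between 733 and 2109.8 CPM, which left 10 of the 31 below and 21 above. At week 21 all 8 lay above it, females at 24143, 27016, 8560 and 20977 CPM and males at 13130, 9188, 11733 and 11737 CPM. At week 104 females had 439, 443, 11082 and 733 CPM and males 11951, 2960, 77.1 and 4215 CPM. The within-group SD of the log2 level was 2.64 in brain, 1.297 in spleen, 1.21 in muscle and 0.23 to 0.76 in the other 8 organs, lowest in lung, and no member changed with age in brain past the threshold of the edgeR test.

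The neuronal markers did not share this spread: miR-124 and miR-9a together ran from 42878 to 96808 CPM. miR-124 varied 2.88-fold across the same libraries, from 5175 to 14913 CPM, and ordered 20 of the 45 within-group pairs of libraries as the family did. miR-182, miR-183-5p and miR-96-5p, which come from 1 cluster known from sensory cells and the pineal gland, did vary with it: miR-182 ran from 517 to 59936 CPM, miR-183-5p from 106 to 22195 CPM and miR-96-5p from 1.66 to 2437 CPM. They ordered 36, 39 and 39 of the 45 pairs as the family did. The stratified epithelium markers miR-203a and miR-205 summed to a mean of 56.8 CPM in brain, the lowest of the 11 organs. Each of the 8 sequencing lanes held brain libraries on both sides of the gap except lane 4, whose 4 libraries were all above it. The part of other tissue in these libraries was not tested.

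**Figure D3:**
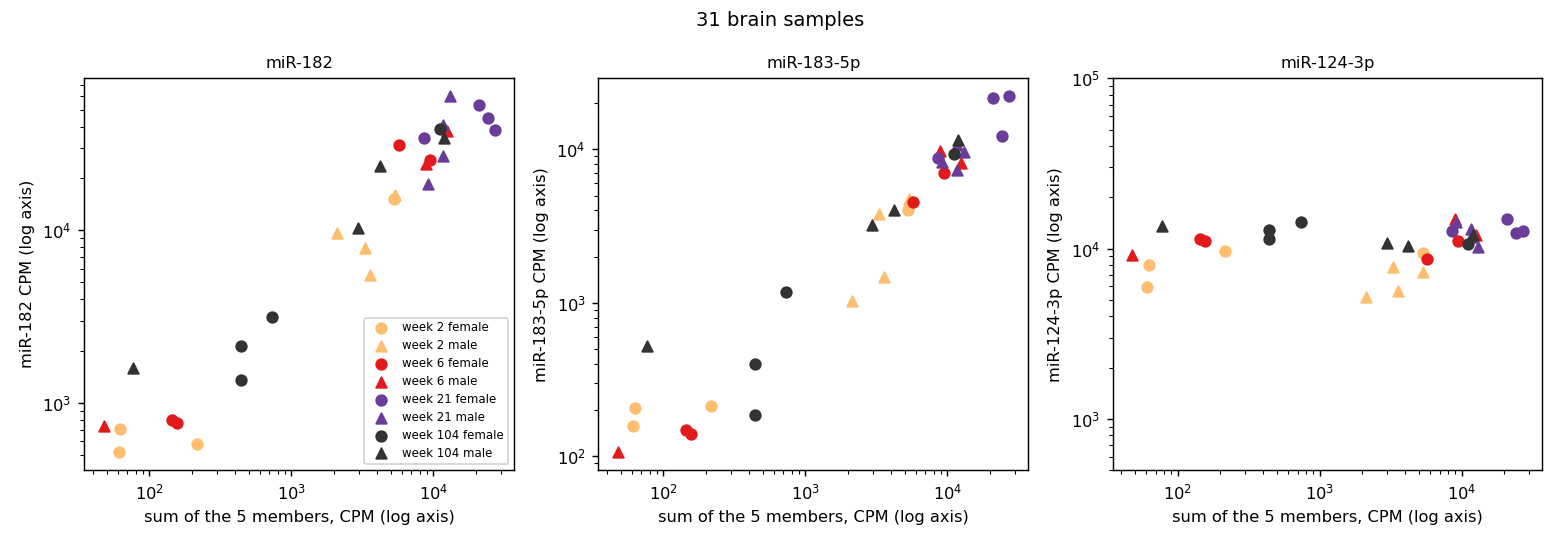
Each point is 1 of 31 brain libraries, with the summed CPM of the 5 members along the horizontal axis and miR-182, miR-183-5p or the neuronal miR-124-3p on the vertical axis, all on log axes; colour gives age and shape gives sex. miR-182 and miR-183-5p climb with the family (517 to 59936 and 106 to 22195 CPM) while miR-124-3p stays between 5175 and 14913 CPM.

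Over all organs 4 of the 5 miRNAs outside the family with the most similar pattern were of the same sensory cluster. By Pearson's r of log2(mean CPM + 1) with the summed family over the 80 groups, miR-182 came first (0.765), then miR-183-5p (0.733), miR-183-3p (0.730), miR-96-5p (0.721) and miR-582-3p (0.642). Without the 8 brain groups miR-183-3p led (0.788), followed by miR-182 (0.753) and miR-183-5p (0.725), while miR-582-3p (0.715) and miR-582-5p (0.711), which are not of that cluster, completed the first 5 and miR-96-5p was no longer among them. Of the other epithelial miRNAs listed for comparison, miR-205 had an r of 0.553 and miR-203a 0.417, while miR-375, of endocrine cells, had 0.243. Without the brain groups these were 0.690, 0.613 and 0.290. These values describe groups that share organs, and carry no test.

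Age was tested within each organ, averaged over the sexes, for 55 combinations of member and organ. From week 2 to week 104 the members rose in 20 and fell in 6. Over all miRNAs 21.8% of such tests rose and 28.1% fell, so rises were more frequent among the members (20 of 55) and falls less frequent (6 of 55) than in the background, with no test of that difference. From week 2 to week 6, 13 rose and 6 fell (background 15.4% and 20.6%). From week 6 to week 21, 4 rose and 1 fell (background 7.39% and 8.94%), and from week 21 to week 104, 3 rose and 1 fell (background 7.38% and 8.66%), so that in both steps the rises were close to the background and the falls below it. These calls depend on the scaling. With library size alone in place of the TMM factors, 11 rose and 11 fell from week 2 to week 104, where 12.3% of all tests rose and 38.7% fell. By both scalings 10 rose and 6 fell. The median change of all miRNAs moved with the scaling as well, from -0.17 to -1.13 on the log2 scale in uterus and from -0.55 to -2.06 in testis.

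In lung all 5 members rose, where 23.5% of all miRNAs rose. miR-141-3p went from 3279 to 5740 CPM at week 2 (median 3833) through 4324 to 7384 at week 6 and 7131 to 9749 at week 21 to 5391 to 8150 CPM at week 104 (median 7427). Week 21 lay wholly above week 2, and week 104 overlapped week 2 at 1 end, its lowest library being below the highest of week 2. The change from week 2 to week 104 was 1.02 on the log2 scale (SE 0.14, edgeR adjusted p = 1.77e-07), and steps of 0.69 and 0.66 passed from week 2 to 6 and from 6 to 21. miR-200a-3p rose by 0.99 (SE 0.16), miR-429 by 0.75 (SE 0.19), miR-200b-3p by 0.71 (SE 0.26) and miR-200c-3p by 0.71 (SE 0.12). With library size alone miR-429 (0.53) and miR-200b-3p (0.50) no longer passed, and the other 3 did. The summed level was 8482 CPM at week 2 (± 1618 SD, n = 8), 11183 at week 6 (± 1702), 14166 at week 21 (± 1326) and 13480.2 at week 104 (± 2088). Of the 12 other epithelial miRNAs listed, 7 rose and 1 fell in lung, among them miR-375 (1.18) and miR-192 (2.22). The 3 miRNAs of the list known from multiciliated cells did not move together: miR-34c and miR-34b rose (1.14 and 1.32), and miR-449a fell by 2.76.

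**Figure D4:**
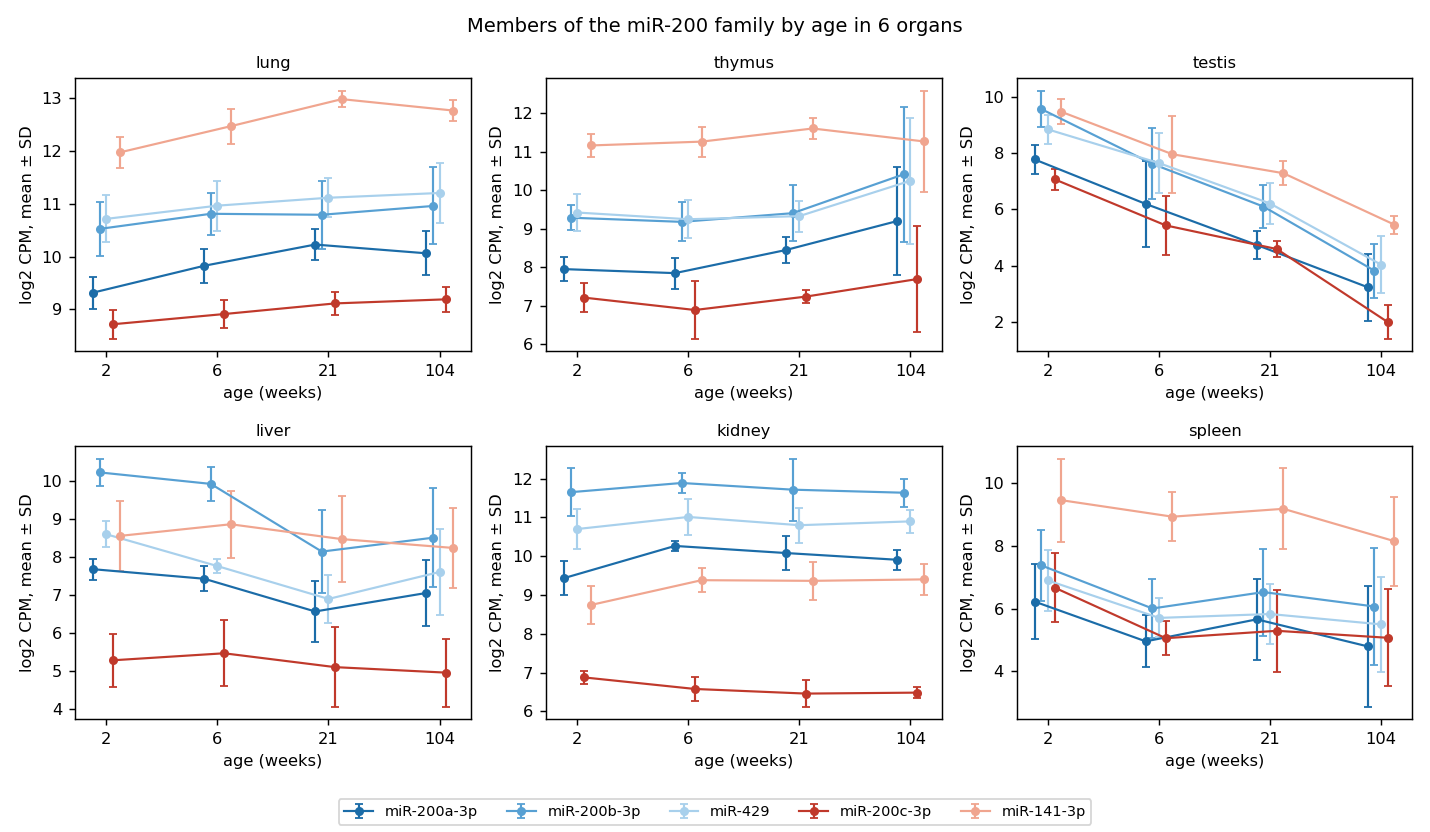
Mean log2 CPM (± SD over samples; n = 8 per age, 4 in testis, 7 in spleen at week 104) of the 5 members at 2, 6, 21 and 104 weeks in 6 organs. From week 2 to week 104 all 5 lines go up in lung and down in testis, although miR-141-3p and miR-200a-3p in lung are lower at week 104 (7026 and 1112 CPM) than at week 21 (8139 and 1223 CPM), and the thymus and spleen bars widen at week 104.

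In testis all 5 members fell from week 2 to week 104, where 36.7% of all miRNAs fell. The summed level was 3133, 1535, 2804 and 2129.6 CPM at week 2, then 682, 378, 503 and 2697 CPM at week 6, 409, 474, 223 and 373 CPM at week 21, and 97.7, 140, 52.9 and 91.8 CPM at week 104. The week 2 libraries lay above all those of weeks 21 and 104, and the week 104 libraries below every other. The library of 2697 CPM at week 6 also had 377 CPM of miR-205, against 33.2 to 80.3 in the other 3. miR-200b-3p fell by 4.17 on the log2 scale (SE 0.60, edgeR adjusted p = 1.34e-05), from 817 to 16.1 CPM, and the changes were -3.46 for miR-200c-3p, -3.17 for miR-429, -2.83 for miR-200a-3p and -2.46 for miR-141-3p. The median of all miRNAs fell by 0.55, or by 2.06 with library size alone, and all 5 stayed below it and past the threshold by both scalings. With the sequencing lane in the fit miR-141-3p did not pass, and 4 did. Germ-cell miRNAs moved between the same libraries: miR-34c was at 418 to 492 CPM at week 2, 118131 to 151844 at week 6, 118679 to 141837 at week 21 and 40.6 to 1784 CPM at week 104, and miR-741 fell from 3730 to 7022 CPM at week 21 to 17.0 to 288 CPM at week 104. The part of cell makeup in the fall was not tested. Of the 12 epithelial miRNAs 8 fell and 2 rose.

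In thymus, miR-200b-3p (1.26, SE 0.34), miR-200a-3p (1.19, SE 0.26) and miR-429 (0.85, SE 0.31) rose from week 2 to week 104, where 25.0% of all miRNAs rose, and the same 3 passed from week 21 to week 104 (0.99, 0.64 and 0.90), where 19.6% of all miRNAs rose. miR-429 did not pass from week 2 to week 104 without replicate 2 (0.55) or 3 (0.86). From week 21 to week 104, 0 combinations of member and organ rose without replicate 2, and 1 rose without replicate 3. The summed level at week 104 was 9851, 12150.2, 13252 and 10749.7 CPM in females and 978, 12668, 4792 and 1656 CPM in males, against 2748 to 6009 CPM in all 24 younger libraries. All 4 females were thus above every younger library, and males 1 and 4 were below every one. These males also had the least miR-181a, a miRNA of immature T cells chosen after its values were seen: 13923 and 18278 CPM, against 23344 to 105875 in the other 6 of that age and 214802 to 461215 CPM in younger animals. Their miR-205, of stratified epithelium, was at 525.9 and 264 CPM against 3408 to 8693 CPM in the other 6, but miR-203a, the other miRNA of that list, went the opposite way, at 1599 and 1338.5 CPM against 609 to 1054 CPM. Without both males all 5 members rose, miR-141-3p by 0.52 (SE 0.18, edgeR adjusted p = 0.0152) where it had been -0.03, miR-200c-3p by 0.95, miR-429 by 1.45, miR-200a-3p by 1.77 and miR-200b-3p by 1.85. With the lane in the fit only miR-200a-3p passed from week 2 to week 104 (1.00), and none rose from week 21. Within ages Pearson's r between the family and the summed stratified epithelium pair was 0.751, 0.922, 0.659 and 0.935 at weeks 2, 6, 21 and 104 (n = 8 each, no test). A pooled value is not given, since the week 104 samples lie apart.

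In spleen the family followed the pancreas markers. All 4 miRNAs of that list were found, miR-216a, miR-216b, miR-217 and miR-375, the last by far the most abundant. Their sum does not mark pancreas alone, with means of 5479 CPM in adrenal gland, 3090 CPM in lung and 2594 CPM in liver. Their summed level averaged 2227 CPM over the spleen libraries, and ranged from 12.4 CPM in week 104 female 1, with 304 CPM of the family, to 12700 CPM in week 104 female 3, with 4295 CPM. Libraries with more of the list tended to have more of the family at every age, with exceptions. At week 104 male 2 had 69.7 CPM of the list and 229 CPM of the family, against 12.4 and 304 CPM in female 1. Pearson's r of the log2 values was 0.891 and Spearman's rho 0.912 over 31 libraries (permutation p = 1e-05 for each, the smallest that 100000 permutations can give, and 2e-05 adjusted over the 2 such relations computed, the other in thymus). Without the 2 libraries farthest from the median r was 0.887, and within ages it was 0.957, 0.970, 0.939 and 0.855. miR-216b was at 0 counts in 5 libraries whose family level was 213 to 304 CPM. The part of pancreatic tissue in the spleen values was not tested.

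**Figure D5:**
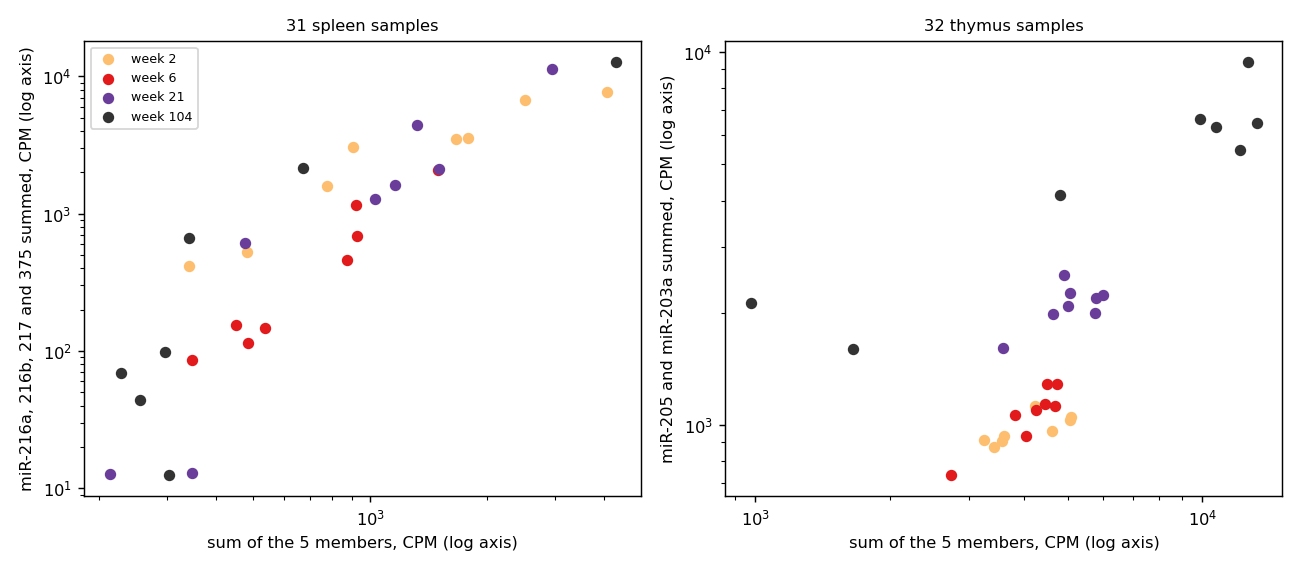
Summed CPM of the 5 members (horizontal) against the summed pancreas markers in 31 spleen libraries and against the summed stratified epithelium markers in 32 thymus libraries, all on log axes, with colours for age. The spleen points run from 213 to 4295 CPM of the family and climb together with the markers, and the 2 lowest thymus libraries, at 978 and 1656 CPM, are both of week 104.

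No member changed in spleen from week 2 to week 104 past the threshold (-0.46 to -1.01). Without female 3 of week 104 all 5 fell, by 1.53 to 2.06 (edgeR adjusted p from 0.00348 to 0.0118), where 24.2% of all miRNAs fell in the full set. miR-200c-3p fell from week 2 to week 6 in the full set as well, by 1.45 (SE 0.53). Each of these falls starts from the degraded week 2 samples, and the part of RNA quality in them was not tested.

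In kidney miR-141-3p (0.85, SE 0.18), miR-200a-3p (0.68, SE 0.14) and miR-429 (0.41, SE 0.13) rose from week 2 to week 104, where 17.7% of all miRNAs rose, while miR-200b-3p, its most abundant member, did not pass (0.16, SE 0.21). miR-429 there changed by 0.15 with library size alone and by 0.34 without replicate 1, and passed in neither case. In uterus miR-141-3p (1.56), miR-200a-3p (1.36) and miR-429 (1.24) rose, where 17.4% rose, but with library size alone they changed by 0.63, 0.46 and 0.28 and none passed. Other markers moved between the same libraries: smooth muscle miR-143 was at 239059 to 300899 CPM at week 2 and 427552 to 465038 CPM at week 104, and miR-205 at 192 to 393 and 17.1 to 53.7 CPM. Their part in the rise was not tested. In heart, where 28.6% of all miRNAs rose, miR-200a-3p rose by 1.497 (SE 0.24), from 9.88 to 19.1 CPM, and did so by both scalings. miR-141-3p, miR-200b-3p and miR-429 rose there by 0.80 to 0.88 with TMM alone, and miR-200c-3p, at 0.00097 with TMM (SE 0.20), fell by 0.56 with library size alone. In adrenal gland, where 21.3% rose, miR-141-3p (1.26, SE 0.32) and miR-200a-3p (0.86, SE 0.33) rose from a few CPM, the latter with TMM alone and not without replicate 2 (0.86, edgeR adjusted p = 0.0885) or 4 (0.57, 0.223) or with the lane in the fit (0.63, 0.201).

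With TMM in edgeR on the full set, liver was the one organ besides testis with a fall from week 2 to week 104. miR-200b-3p ran from 759 through 1287 to 1499 CPM at week 2, and from 60.5 through 465 to 1177 CPM at week 104, so that the ranges overlapped. It fell by 1.31 on the log2 scale (SE 0.30, edgeR adjusted p = 0.000381), where 28.9% of all miRNAs fell. From week 6 to week 21 it fell by 1.24, but without replicate 2, 0 combinations of member and organ fell in that step. miR-429 fell by 0.74 from week 2 to week 6. miR-141-3p did not pass in liver from week 2 to week 104 (-0.06, SE 0.40), but with the lane in the fit it fell by 0.93. In muscle miR-200b-3p fell by 1.83 from week 2 to week 6. The 3 muscle libraries of week 2 with the most of the family also had the most miR-203a and miR-205: male 4 (742 CPM of the family) had 2158 and 697 CPM, female 1 (274 CPM) 615 and 305 CPM, and male 2 (218 CPM) 246 and 132 CPM, against 22.3 to 44.6 CPM of either in the other 5. Their part in the fall was not tested. Without male 4 alone the change was -1.10 and did not pass (edgeR adjusted p = 0.0934).

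The cluster ratio changed with age in 4 of 11 organs by the exact permutation test. From week 2 to week 104 its log2 mean rose from -2.21 to -1.23 in adrenal gland (adjusted p = 0.0203, n = 8 and 8, exact), from -2.11 to -1.07 in liver (adjusted p = 0.0402, exact) and from -0.78 to 0.26 in testis (p = 0.0286, the smallest that 4 against 4 allows, adjusted p = 0.0405, exact). It fell from 0.64 to -0.26 in thymus (adjusted p = 0.00695, exact). In liver and testis the shift stood beside the fall of miR-200b-3p, the steepest of the 5 members in both. The seed ratio changed in these 4 organs and in uterus, but in 2, 1, 3 and 2 organs without replicate 1, 2, 3 and 4. The sequencing lane was in none of the ratio tests, so its part in the differences of the ratios between organs and ages was not tested. Leaving out 1 replicate number at a time, thymus passed for the cluster ratio in all 4 cases. Adrenal gland did not pass without replicate 1 or 3 (adjusted p = 0.0559 and 0.130, exact), and liver without replicate 1, 2 or 3 (0.114, 0.143 and 0.155), while the directions stayed. Testis, with 3 against 3, could not go below an exact p of 0.10 in this check.

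Few tests by sex passed. Of 45 combinations of member and organ in the 9 organs of both sexes, 1 passed over all ages, where 1.39% of all miRNAs passed: miR-200c-3p in heart, at 10.3 CPM in females and 6.29 CPM in males, 0.72 higher on the log2 scale in females (SE 0.14, edgeR adjusted p = 0.00368). Without replicate 4 this was 0.71 and did not pass (edgeR adjusted p = 0.0514). At single ages 2 of 180 tests passed, miR-200c-3p in heart at week 2 (14.9 against 6.57 CPM, 1.34, SE 0.28, edgeR adjusted p = 0.00225, where 2.25% of all passed, but 0.0732 without replicate 4) and miR-141-3p in thymus at week 104 (4782 against 1736 CPM, 1.34, edgeR adjusted p = 0.0271, where 1.17% passed). The latter rested on male 1 and was not called without it. For the change of the sex difference between weeks 2 and 104, 0 of 45 passed by edgeR, where 1.24% of all miRNAs passed, with 10 at an unadjusted p under 0.05, and 0 by DESeq2. For the sex difference itself, 8 of 45 had an unadjusted edgeR p under 0.05 over all ages. At weeks 2, 6, 21 and 104 there were 10, 1, 2 and 17 of 45. The share of all miRNAs under the same unadjusted threshold was not computed, and the members of an organ share libraries and vary together. No excess of the family can therefore be read from these unadjusted counts.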

How the data were processed

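The authors trimmed reads with fastp 0.23.2, aligned them with Bowtie 1.3.1 to miRBase and other transcript sets, allowing fewer than 2 mismatches, and deposited read counts per miRNA, without normalization and after removal of miRNAs averaging under 1 count per library. The matrix of counts was used as deposited. CPM were computed from column totals. Counts were fitted with edgeR 4.0.16 (R 4.3.3; TMM, quasi-likelihood), with 1 fit per age for organs and 1 per organ for age and sex, and called at an adjusted p under 0.05 over all 616 miRNAs. Ratios needed 10 counts in both sums, with a pseudocount of 0.5, and were tested by exact permutation. Alternatives were library size only, DESeq2 1.42.0, a filter at a mean count of 10, the 320 samples together, lane, replicate block and left-out replicates. Leaving out brain, spleen contrasts of week 2 or single libraries was chosen after seeing the data. Python 3.11.15, NumPy 2.4.6, pandas 2.3.3, SciPy 1.17.1 and matplotlib 3.10.9 were used. The named miRNAs were all rows of the family, the 5 most alike outside it and a list of 12 epithelial miRNAs. The members and lists were chosen with earlier results of these data known. Lanes came from the study's sample table. RefSeq held mature entries for 6 of the 9 rows, not for miR-200a-3p, miR-200b-3p and miR-429. On simulated counts with 200 of 616 miRNAs changed, the organ test of lung against uterus recovered 196 at 16-fold with 5 false calls, the age test in lung 169 at 4-fold with 5, and the sex test in lung 158 at 2-fold with 4.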

Additional observations from a re-analysis of the deposited data

Results flagged for a closer look

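Of 78 groups of 4, 4 had a sample far from the rest of its group in the summed level of the 5 members, and chance alone would do this in about 1 in 20 groups. In brain, female 3 of week 104 had 11082 CPM against 439 to 733 CPM in the other 3. In liver, male 3 of week 21 had 3632 CPM against 530.2 to 724 CPM. In adrenal gland, male 1 of week 21 had 61.0 CPM, the highest of its group, and male 3 of week 104 had 37.7 CPM, the lowest of its group.

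The libraries left out of the comparisons also held the family. Brain male 3 of week 6 had 9747 CPM, within the range of the brain libraries used. Spleen female 4 of week 104 had 4341 CPM, above the 31 spleen libraries used, with 1569 CPM of the pancreas list.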

How the results depend on the processing

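With library size alone, 7 member and organ combinations rose and 9 fell from week 2 to 6, against 13 and 6 with TMM. By that scaling 1 rose and 3 fell from week 6 to 21, and 4 rose and 4 fell from week 21 to 104. From week 2 to 104, 11 rose and 11 fell, and 1 sex by age interaction passed. DESeq2 gave 4 falls from week 6 to 21, 2 sex calls and 6 at single ages. All 320 samples gave 5 at single ages. With lane as a covariate, 15 rose and 6 fell from week 2 to 104, against 20 and 6 without it. From week 21 to 104, 0 rose and 4 fell, with 3 sex calls, 8 at single ages and 3 interactions. Without thymus male 1, or males 1 and 4, of week 104 single ages gave 1. Without spleen female 3 of week 104, 2 fell from week 21 to 104 and 11 from week 2. Without liver male 3 of week 21, 2 fell from week 6 to 21. TMM-scaled CPM put kidney at 10482 and uterus at 5803, and brain (4033) below uterus. Spearman's likeness to miR-182 was 0.761. The cause of these shifts was not tested.

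Leaving out each replicate number gave 819 to 851 organ calls, 10 to 14 rises and 2 to 7 falls from week 2 to 6, 1 to 4 and 0 to 2 from week 6 to 21, 0 to 3 and 0 to 4 from week 21 to 104, 18 to 20 and 6 to 13 from week 2 to 104, 0 (without replicate 4) to 3 sex calls, 2 to 7 at single ages, 0 to 2 interactions, and 1 to 3 age calls of the cluster ratio and of the seed ratio. From week 2 to 104 this ended calls of miR-200a-3p in adrenal gland (0.86 without replicate 2, 0.57 without replicate 4), of miR-429 in kidney (0.34 without replicate 1) and of miR-429 in thymus (0.55 without replicate 2, 0.86 without replicate 3).

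Changes of direction in a called difference, on the log2 scale, were mostly of brain. With library size alone they were, for brain minus kidney, 0.20 (week 6) and 1.10 (week 21) for miR-141-3p, 1.75 for miR-200a-3p and 0.12 for miR-200b-3p (week 21), 0.022 and 1.42 for miR-200c-3p (weeks 6 and 21) and 0.12 for miR-429 (week 6). For brain minus uterus they were 0.056 and 0.78 for miR-141-3p (weeks 6 and 21), 1.48 for miR-200a-3p (week 6), 0.48 for miR-200b-3p (week 104) and 0.93 for miR-200c-3p (week 21). For brain minus lung at week 6 they were 0.024 for miR-200a-3p and 0.16 for miR-429 (0.077 by DESeq2), for brain minus thymus at week 2 0.31 and 0.24 for these members, and for brain minus liver at week 6 0.13 for miR-200b-3p. Kidney minus spleen at week 21 was -0.21 for miR-141-3p, and miR-200c-3p in heart was -0.56 from week 2 to 104. With lane, liver from week 2 to 6 was -1.02 for miR-141-3p and -0.96 for miR-200c-3p. Without both thymus males miR-141-3p was 0.52, without spleen female 3 miR-200b-3p of heart minus spleen at week 104 was 0.12, and without replicate 3 miR-200c-3p of liver minus spleen at week 104 was 1.31.

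The labels do not say whether a replicate number marks the same rat in different organs. Correlations of same-numbered deviations exceeded 0.1 in 25.1% of organ pairs and 29.0% of pairs of groups, which cannot decide it. The main organ tests and the ratio tests did not use the numbers as pairs, and so treated organs of the same rat as independent. The replicate block gave 858 organ calls, 14 rises and 7 falls, 5 and 1, 2 and 1, and 20 and 6 in the order of ages above, 1 sex call, 3 at single ages and 0 interactions. Depth limited the 5p strands and miR-200c-3p in adrenal gland, where 3 counts are 0.869 CPM at the median total.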

Other observations

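The 12 other epithelial miRNAs gave a comparison for the family's changes from week 2 to week 104, by the same edgeR fits. In heart 8 rose and 2 fell, where 28.6% of all miRNAs rose and 26.1% fell, and the median change of the list was 0.90 on the log2 scale against 0.07 over all miRNAs. In thymus 8 rose and 3 fell (background 25.0% and 33.0%, median 0.95 against -0.19), and in liver 7 rose and 1 fell (15.7% and 28.9%, median 0.71 against -0.16), although miR-200b-3p fell there. Kidney had 7 rises and 2 falls (17.7% and 26.0%, median 0.63 against -0.13) and lung 7 and 1 (23.5% and 26.0%, median 0.78 against -0.0027). Brain, where no member of the family passed, had 6 rises and 1 fall (28.7% and 26.0%) with a median of 1.07 against 0.07. Muscle had 6 rises and 5 falls (28.1% and 31.7%), adrenal gland 4 and 4 (21.3% and 23.7%), uterus 3 and 4 (17.4% and 27.3%), and spleen, whose week 2 samples had degraded RNA, 3 and 1 (15.4% and 24.2%). Testis had 2 rises and 8 falls (18.5% and 36.7%, median -1.05 against -0.55).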
